A study of Mus musculus with 6 samples.

Results

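The circRNAs of the DENN domain family were followed in mouse aortas. The members are all entries of the deposited circRNA table whose host gene symbol starts with Dennd, after Ensembl identifiers were turned into symbols. They were 56 of 10023 entries, and they came from 10 of 3981 host genes. Of the 14 entries of Dennd1b, the gene of the circle that the study names circDENND1B, each is described, and the reads of Dennd1b are compared with those of the other Dennd genes. The mouse name table holds 14 Dennd symbols, and no entry of the circRNA table carried Dennd1c, Dennd2c, Dennd2d or Dennd6b.

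The 6 aortas came from male ApoE−/− mice on a C57BL/6 background, which lacked apolipoprotein E in both groups. From 6 weeks of age, the mice received for 12 weeks either a high-fat diet (HFD) with added cholesterol and cholic acid (3 aortas) or a chow diet (3 aortas), called a normal diet in the sample labels. The comparison asks which circRNAs differ between aortas of mice on the atherogenic diet and aortas of control mice. The labels describe RNase R digestion of the RNA. The study's methods name RNase R for isolating circRNA and, for the sequencing libraries, a kit that removes ribosomal RNA.

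Back-splicing joins the end of a downstream exon to the start of an upstream exon and leaves a closed circle without free ends. A circRNA is therefore counted by the reads that cross its back-splice junction. DENN domain proteins act as exchange factors that switch on Rab GTPases, the small GTPases that direct membrane traffic between organelles. The DENND1 proteins, also called connecdenns, act on Rab35 at clathrin-coated pits and endosomes, and DENND1B is known from T helper cells, where it takes part in the removal of T cell receptors from the cell surface. Abca1, which the study follows downstream of circDENND1B, exports cholesterol from foam cells.

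The libraries held 4694, 5621 and 4875 back-spliced reads in the 3 HFD aortas (replicates 1, 2 and 3, the order kept throughout) and 7585, 7142 and 7476 in those of the chow diet. The Dennd genes supplied 15, 29 and 16 of these reads under HFD and 42, 34 and 30 under chow diet. As a share of all back-spliced reads, this was 0.320%, 0.516% and 0.328% under HFD and 0.554%, 0.476% and 0.401% under chow diet. HFD replicate 2 lay among the chow diet aortas, and the other HFD aortas lay below all of them. The 95% Clopper-Pearson interval ran from 0.179% to 0.527% for HFD replicate 1 and from 0.399% to 0.748% for chow diet replicate 1, so that the counting intervals of these aortas overlapped. Such intervals cover counting error only, and the replicates also differed beyond it, with a chi-square per degree of freedom between 1.93 and 2.12 over the host genes.

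Over the 6 aortas, Dennd1b had 75 back-spliced reads, 45.2% of the 166 reads of the family. It ranked 63 among the 3981 host genes by reads and 23 by number of entries. The median host gene had 3 reads. Dennd4a followed with 22 reads, Dennd4c with 17, Dennd1a with 16, Dennd5a with 13, Dennd5b with 10, Dennd2a and Dennd6a with 5 each, Dennd3 with 2 and Dennd4b with 1. Dennd1b had the most reads of the 10 genes in all 6 aortas. Its lowest aorta (4 reads) was within the range of Dennd4a (2 to 6), Dennd4c (0 to 5), Dennd1a (1 to 4) and Dennd5b (0 to 5), and the ranges of all neighbours below it in this order overlapped.

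Back-spliced reads cross 1 junction and do not grow with the length of a circle, but a gene with more exon sequence offers more places for a back-splice. Per kilobase of internal exons, the exons between the first and the last of the transcript, Dennd1b had 43.1 reads over 1741 bases. Over the 6 aortas together, Dennd1a was next on this scale with 8.80 reads per kilobase, followed by Dennd4a (3.87), Dennd5a (3.72), Dennd4c (3.69), Dennd6a (3.63), Dennd5b (2.85), Dennd2a (1.61), Dennd3 (0.568) and Dennd4b (0.228). The order below Dennd1b differed between aortas. In chow diet replicate 3, Dennd1a (0.550 reads per kilobase) was below Dennd6a (1.45) and Dennd5b (1.42). Dennd1b and Dennd1a have 20 internal exons each of nearly the same total length (1741 and 1819 bases), with 75 and 16 reads. On the HFD these connecdenn genes had 4, 14 and 5 reads (Dennd1b) and 3, 4 and 1 reads (Dennd1a). On the chow diet they had 21, 17 and 14 reads and 4, 3 and 1 reads.

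**Figure D1:**
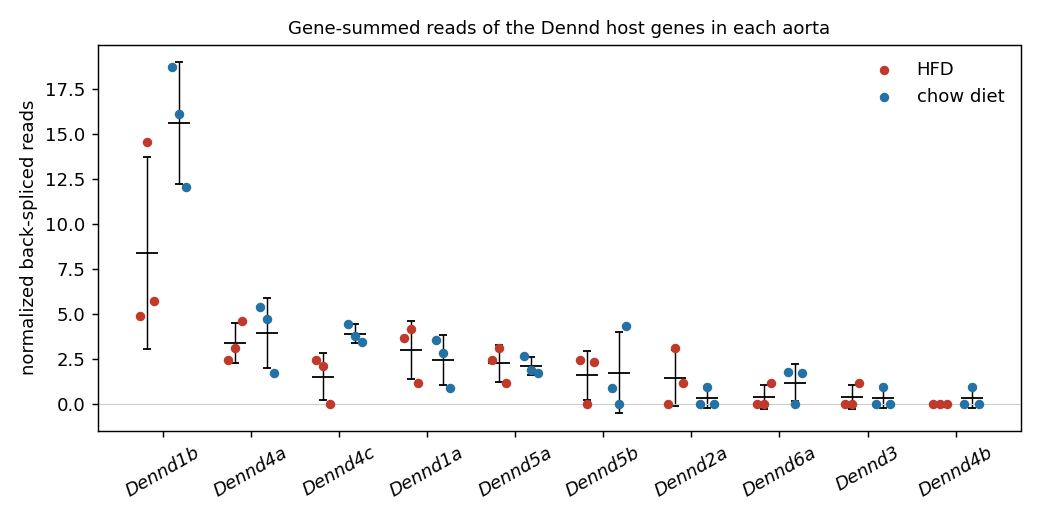
Back-spliced reads summed per Dennd host gene in each aorta, normalized by the effective library size (TMM), with the mean and SD of 3 aortas per diet as black bars. The genes are ordered by raw reads, and Dennd1b stands above the others, with HFD replicate 2 (14.5) between chow diet replicates 2 (16.1) and 3 (12.0).

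Dennd1b reads were fewer on the HFD in 2 of the 3 aortas, but the diets overlapped and the difference did not meet the study's criteria. Raw reads were 4, 14 and 5 under HFD and 21, 17 and 14 under chow diet. Divided by the effective library size and scaled to its mean (normalized reads), the values were 4.87, 14.5 and 5.73 under HFD and 18.7, 16.1 and 12.0 under chow diet. HFD replicate 2 was above chow diet replicate 3, and the other HFD aortas were below every chow diet aorta. The means were 8.38 ± 5.35 and 15.6 ± 3.37 normalized reads (SD, n = 3 each), and a two-sided exact permutation test over the aortas gave p = 0.2, where 3 against 3 allow no p under 0.1. Summed over the aortas of a diet, the ratio of HFD to chow diet was 0.557, with a 95% counting interval of 0.325 to 0.926. Scaled by library size in place of TMM, the ratio was 0.647 (0.378 to 1.08), an interval that includes 1. edgeR's quasi-likelihood test gave a log2 fold change of -0.86 (standard error 0.50, Benjamini-Hochberg adjusted p = 0.674 over 2240 host genes). Without HFD replicate 2, the log2 fold change was -1.45 and the study's criteria, an unadjusted p under 0.05 with an absolute log2 fold change above 1, were met (edgeR, adjusted p = 0.760, between 0.580 and 0.997 over the alternatives). Fewer cells that make these circles and fewer circles per cell cannot be told apart in whole aortas. The p-values set the difference between the diets against the spread between these 6 aortas. For this spread, edgeR also draws on the other host genes tested.

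Of the 10 Dennd host genes, 9 had reads in at least 2 aortas and were tested, and 0 of the 9 met the study's criteria in edgeR, with 0 at an unadjusted p under 0.05 and 0 called by DESeq2 and by limma. Among all 2240 host genes tested, 100 met the criteria (4.46%, 2.77% lower on the HFD), 4.6% had an unadjusted p under 0.05, and 4 genes had an adjusted p under 0.05. Of the 9 Dennd genes, 5 had a negative and 4 a positive log2 fold change, with a median of -0.18 beside -0.17 over all host genes tested, and the sign of Dennd5b turned in DESeq2 and limma and that of Dennd5a in limma. The median of all host genes was 0.02 when library size replaced TMM, a shift that the fold changes of single host genes share. The 100 calls with TMM were 38 higher and 62 lower on the HFD, and the 89 calls with library size alone were 47 higher and 42 lower. Without Dennd1b, the family had 11, 15 and 11 reads under HFD and 21, 17 and 16 under chow diet, or 13.9 ± 1.54 and 16.2 ± 2.49 normalized reads (SD, n = 3 each). The ratio of HFD to chow diet was 0.863 (95% counting interval 0.552 to 1.33) for these 9 genes together, and 1.00 (0.641 to 1.55) when scaled by library size.

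Dennd1a, the other connecdenn gene with reads, had 3, 4 and 1 reads under HFD and 4, 3 and 1 under chow diet over 7 entries. The diets overlapped (log2 fold change 0.30, edgeR, adjusted p = 0.953). Its largest entries had 3 reads, and 5 of the 7 entries were seen in a single aorta.

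The DENND4 proteins are exchange factors for Rab10, which carries vesicles to the plasma membrane. Dennd4c had 2, 2 and 0 reads under HFD and 5, 4 and 4 under chow diet, and its normalized reads were 2.44, 2.08 and 0 against 4.46, 3.78 and 3.43. It was the 1 Dennd gene of the 9 whose diets did not overlap (exact permutation test, p = 0.1, the smallest possible), and 9.55% of all host genes tested had diets without overlap. Its log2 fold change was -1.30 (standard error 1.16, edgeR adjusted p = 0.897), with a ratio of 0.387 and a 95% counting interval of 0.0920 to 1.25. Without HFD replicate 3, the aorta with 0 reads, the log2 fold change was -0.70. The 17 reads were spread over 10 entries, none with more than 3 reads, between exons 2 and 23. Of these entries 6 had reads in a single aorta, and 8 of the 10 circles shared an end with another circle of the gene.

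Dennd4a had 2, 3 and 4 reads under HFD and 6, 5 and 2 under chow diet (log2 fold change -0.20, edgeR, adjusted p = 0.953). The diets overlapped. Its entry mmu_circ_0015787, exons 9 to 15 on chromosome 9 (64857667 to 64873139), had 0, 1 and 1 reads under HFD and 1, 3 and 0 under chow diet. Its entry mmu_circ_0015783, exons 2 to 5 (64835286 to 64842689), had 0, 0 and 3 reads against 0, 2 and 0. Dennd4b had 1 read, in chow diet replicate 2, and was not tested.

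The DENND5 proteins bind Rab6 and Rab39 on Golgi and endosomal membranes. Dennd5a had 2, 3 and 1 reads under HFD and 3, 2 and 2 under chow diet (log2 fold change 0.09, edgeR, adjusted p = 0.972). Its largest entry, mmu_circ_0013752 of exons 6 to 11 on chromosome 7 (109911915 to 109919477), had 0, 2 and 1 reads against 2, 1 and 0. Dennd5b had 2, 0 and 2 reads under HFD and 1, 0 and 5 under chow diet, of which 2 and 3 reads in HFD replicate 1 and chow diet replicate 3 came from circRNA6041 on chromosome 6 (149068051 to 149084936). The ends of circRNA6041 lie at exons of different Dennd5b transcripts in the GENCODE vM21 annotation. It was the 1 Dennd entry of 56 whose ends no transcript of its gene in that annotation holds together. The authors list circRNA6041 under the transcript ENSMUST00000150436 with 3 exons. For both genes the diets overlapped.

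Dennd2a, whose protein acts on Rab9 in transport from endosomes to the Golgi, gave reads to a circle of exon 2 alone. This circle, mmu_circ_0013375 on chromosome 6 (39522656 to 39523759), is 1104 bases long and had 0, 3 and 1 reads under HFD and 0, 1 and 0 under chow diet. The circle's ratio of 5.20 had a 95% counting interval of 0.515 to 256. Dennd3, which acts on Rab12, had 1 read on each diet, and Dennd6a, which acts on Rab14, had 0, 0 and 1 reads under HFD and 2, 0 and 2 under chow diet. Dennd6a had a ratio of 0.315 with a 95% counting interval of 0.00639 to 3.18. For these 3 genes a difference between the diets was not detectable at this depth.

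Of the 42 Dennd entries outside Dennd1b, 37 had fewer than 5 reads and 18 had 1 read. Over the whole family, 35 of 56 entries (62.5%) had reads in a single aorta, 3 had reads in at least 4 aortas and 1 had reads in all 6. In the whole table, 74.4% were seen in a single aorta. The median Dennd entry had 2 reads, as had the median entry of the table.

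The 14 entries of Dennd1b are 11 different circles, since 3 back-splices were listed as 2 entries whose starts lie 1 base apart. They lie on the forward strand of chromosome 1 (GRCm38), and their exons are numbered here in the GENCODE vM21 transcript ENSMUST00000168527 with 22 exons and 766 codons. All 11 circles are made of coding exons between exon 3 and exon 19, and their spliced lengths run from 214 to 1159 bases.

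**Figure D2:**
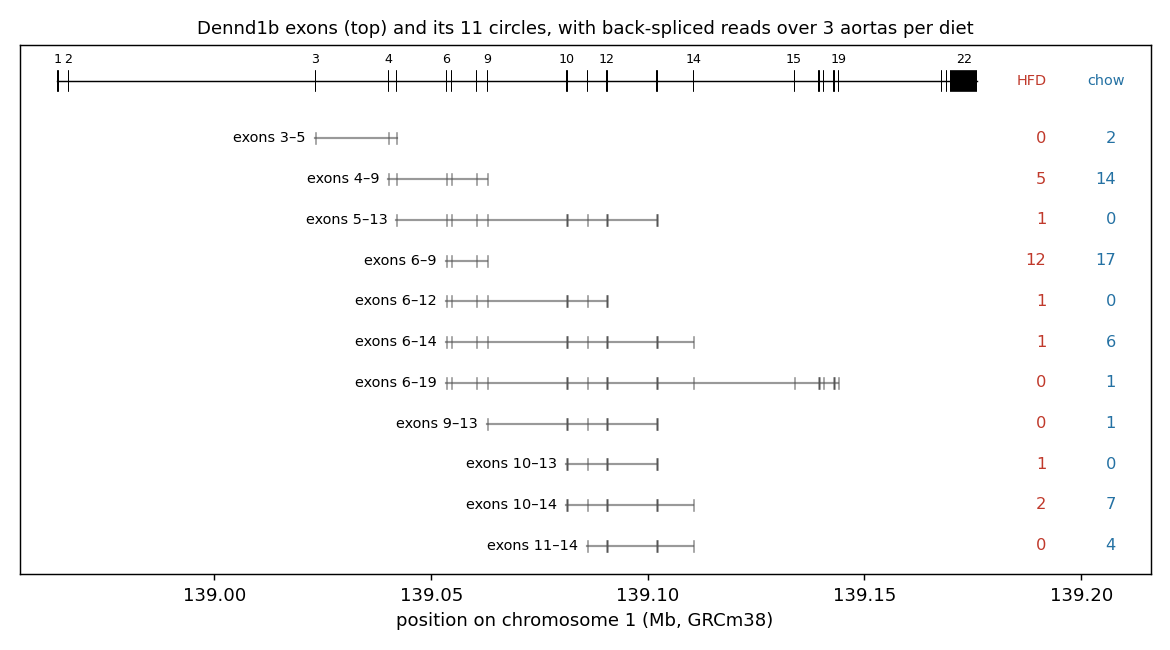
Exons of Dennd1b on chromosome 1 to scale (top line, narrow exons drawn with a minimum width) and the span of each circle, with the back-spliced reads summed over 3 HFD aortas in red and 3 chow diet aortas in blue. The circles of exons 6 to 9 (12 and 17 reads) and exons 4 to 9 (5 and 14 reads) share the end of exon 9, and the others end at exons 5, 12, 13, 14 or 19.

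The circle of exons 6 to 9, mmu_circ_0000083 (139053346 to 139062971), had the most reads of the family. It is 316 bases long and had 2, 8 and 2 reads under HFD and 9, 4 and 4 under chow diet, and it was the Dennd entry seen in all 6 aortas. HFD replicate 2 and chow diet replicate 1 stood above the other 4 aortas, and the diets overlapped. Normalized reads were 4.36 ± 3.29 under HFD and 5.02 ± 2.57 under chow diet (SD, n = 3 each), with a log2 fold change of -0.16 (standard error 0.81, edgeR adjusted p = 0.955 over 2646 circles, exact permutation test p = 0.6). The log2 fold change was 0.02 with library size alone. It ran from -1.14 (without HFD replicate 2) to 0.28 (without chow diet replicate 1) with an aorta left out. Its sign thus changed with the scaling and with single aortas.

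The circle of exons 4 to 9, circDENND1B, is 486 bases long and had 19 reads. The study counts circDENND1B among its differentially expressed circRNAs. It also reports by qRT-PCR, in a larger number of aortas per diet, that circDENND1B was lower on the HFD. The entry mmu_circ_0000081 (139040000 to 139062971) had 0, 5 and 0 reads under HFD and none under chow diet. The entry circRNA2538, which starts 1 base later, had 0, 0 and 0 reads under HFD and 4, 5 and 5 under chow diet. Summed, the circle had 0, 5 and 0 reads against 4, 5 and 5, and HFD replicate 2 was at the level of the chow diet aortas. The sum had a ratio of HFD to chow diet of 0.465 with a 95% counting interval of 0.131 to 1.37, and its log2 fold change was -1.12 (standard error 1.05, edgeR adjusted p = 0.876). Without HFD replicate 2 both remaining HFD aortas had 0 reads and the sum met the study's criteria (edgeR, adjusted p = 0.585, between 0.458 and 0.99998 over the alternatives). In that fit the circle passed the filter through the chow diet alone, and the aorta left out was its only HFD aorta with reads. The call therefore supports no difference between the diets.

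The other 9 circles of Dennd1b had 27 reads together. Exons 10 to 14 (139081173 to 139110485, 477 bases) had 1, 1 and 0 reads under HFD and 2, 2 and 3 under chow diet, as the sum of mmu_circ_0008220 (1, 1, 0 and 0, 2, 0) and circRNA2540 (0, 0, 0 and 2, 0, 3). This circle had the lower reads in all 3 HFD aortas, with a ratio of 0.372 and a 95% counting interval of 0.0377 to 1.95. With mmu_circ_0013753 of Dennd5a (0, 0 and 0 against 1, 1 and 1) it was 1 of 2 among 21 Dennd circles tested whose diets did not overlap, beside 7.26% of all circles tested. The circle mmu_circ_0013753 passed the filter through the chow diet alone, so its lack of overlap supports no difference between the diets. Exons 6 to 14 (139053346 to 139110485, 793 bases) had 0, 0 and 1 reads against 4, 2 and 0, as the sum of circRNA4147 (0, 0, 1 and 0, 2, 0) and circRNA2539 (0, 0, 0 and 4, 0, 0). Exons 11 to 14 (circRNA4583, ending at 139110485) had no read under HFD and 0, 2 and 2 under chow diet. Exons 3 to 5 (circRNA2074, from 139023105) had no read under HFD and 1, 1 and 0 under chow diet.

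The remaining circles had 1 read each. On the HFD these were exons 5 to 13 (circRNA8869) and exons 6 to 12 (circRNA8870) in replicate 3, and exons 10 to 13 (circRNA6895) in replicate 1. On the chow diet they were exons 6 to 19 (circRNA4148), the longest circle with 1159 bases, in replicate 2 and exons 9 to 13 (circRNA2076) in replicate 1. The circles of exons 9 to 13 and of exons 4 to 9 have the same length of 486 bases and share exon 9 alone.

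**Figure D3:**
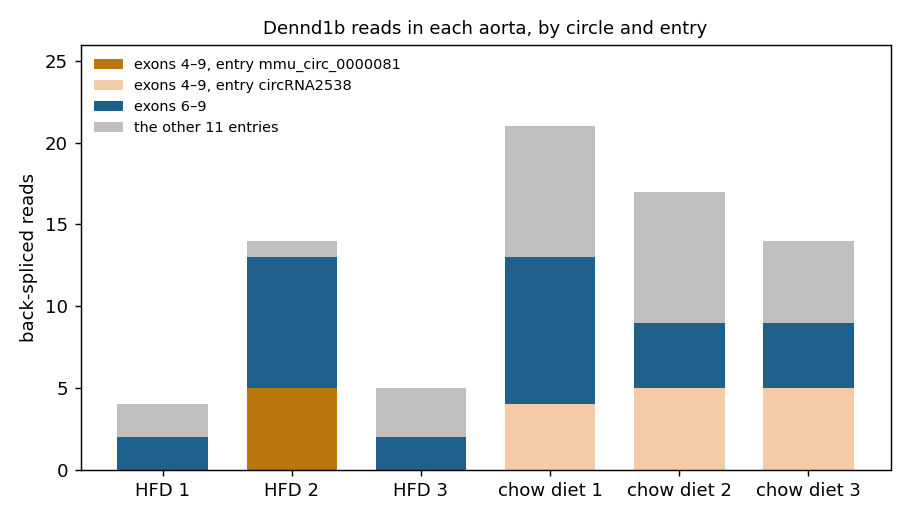
Raw back-spliced reads of Dennd1b in each aorta, divided into the entries of exons 4 to 9, the entry of exons 6 to 9 and the other 11 entries. Each aorta with reads for exons 4 to 9 has them in 1 of the 2 entries, mmu_circ_0000081 in HFD replicate 2 and circRNA2538 in the chow diet aortas.

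Exons 4 to 9 made up 5 of 23 Dennd1b reads under HFD (21.7%, 95% Clopper-Pearson interval 7.46% to 43.7%) and 14 of 52 under chow diet (26.9%, 15.6% to 41.0%). Exons 6 to 9 made up 12 of 23 (52.2%, 30.6% to 73.2%) and 17 of 52 (32.7%, 20.3% to 47.1%). The other 9 circles made up 6 of 23 (26.1%, 10.2% to 48.4%) and 21 of 52 (40.4%, 27.0% to 54.9%). The intervals of the diets overlapped for each of these 3 classes. These shares pool the reads of 3 aortas, so the intervals cover counting error and leave out the spread between aortas. In HFD replicates 1, 2 and 3, exons 4 to 9 had 0 of 4, 5 of 14 and 0 of 5 Dennd1b reads. With the exon 4 to 9 entries taken out, a choice made after seeing the data, Dennd1b had 4, 9 and 5 reads under HFD and 17, 12 and 9 under chow diet (log2 fold change -0.77, edgeR, adjusted p = 0.734). HFD replicate 2 and chow diet replicate 3 then had the same raw reads.

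Of the 56 Dennd entries, 21 had reads in at least 2 aortas and were tested singly. Of these 21, circRNA2538 alone met the study's criteria in edgeR, beside 104 of 2564 entries in the whole table (4.06%, with 2.77% called lower on the HFD, 4.17% at an unadjusted p under 0.05 and 6.67% with diets that did not overlap), of which 33 were higher and 71 lower on the HFD (40 and 43 with library size alone). The Dennd4a entry mmu_circ_0015784 (0, 0 and 0 reads against 2, 0 and 2) met them too without chow diet replicate 2 (edgeR, adjusted p = 0.542). In that fit 117 of 2076 entries were called, 99 of them lower on the HFD. This Dennd4a entry passed the filter through the chow diet alone, and the aorta left out was its chow diet aorta without reads. Its call therefore supports no difference between the diets. With 3 reads per library as the floor below which a count cannot be told from none, the reads of circRNA2538 set it at least 1.24-fold lower on the HFD (edgeR, adjusted p = 0.577, exact permutation test p = 0.1). The entry passed the filter of reads in at least 2 aortas through the chow diet alone. The bound and the tests of circRNA2538 therefore support no difference between the diets. This bound and this call are for the entry as listed and not for the back-splice, since HFD replicate 2 had 5 reads of the same back-splice under mmu_circ_0000081, and entries written like circRNA2538 seldom hold a count of 1 (10 of 1778 non-zero values). circRNA2538 was called in all 14 alternative fits of the single entries, with adjusted p from 0.438 to 0.999. When entries 1 base apart were summed, 0 of 21 Dennd circles tested met the criteria or had an unadjusted p under 0.05 in edgeR, and DESeq2 and limma called 0, beside 90 of 2646 circles in the whole table (3.4%, with 2.34% called lower on the HFD and 3.51% at an unadjusted p under 0.05).

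The pairs of entries followed the way the table writes an entry. Of the 56 Dennd entries, 48 give their flanking introns as exon numbers and 8 as genomic ranges, and all 8 of these start 1 base after an annotated exon start of the gene. Among all exonic and intergenic entries with genomic ranges, 10 of 1778 non-zero values (0.562%) were a count of 1, against 7063 of 12366 (57.1%) among entries written with exon numbers. Among the Dennd entries it was 0 of 13 values against 52 of 77. The 475 pairs of the table held reads in 1672 combinations of a pair and an aorta, and both entries had reads in 9 of these (0.538%). The 4 Dennd pairs (3 of Dennd1b and mmu_circ_0009949 with circRNA2476 of Dennd1a) held reads in 14 combinations, and in 0 of them both entries had reads. Within an aorta the reads of a Dennd back-splice were thus listed under either entry and not divided between them. Why the entry differed between aortas was not tested.

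The ends of the Dennd1b circles were not spread evenly over the exons. The start of exon 6 was used by 4 circles with 38 of 75 reads (50.7%), and the start of exon 4 by 1 circle with 19 reads (25.3%). The end of exon 9 was used by 2 circles with 48 reads (64.0%), and the end of exon 14 by 3 circles with 20 reads (26.7%). Of the 11 circles, 10 shared an end with another circle of the gene. Exon 9 is followed by an intron of 18201 bases, exon 6 is preceded by an intron of 11302 bases and exon 4 by an intron of 16851 bases, while the median intron of Dennd1b is 4609 bases long. Of its 21 introns 7 are at least 10000 bases long, a bound chosen after the introns were seen, and 7 circles with 68 of the 75 reads lie between 2 of them.

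Of the 52 Dennd circles 51 could be placed on annotated exons, with a median length of 565 bases (170 to 2821). Their flanking introns had a median of 5009 bases upstream and 5624 downstream, against 1851 for all 259 introns of the same transcripts. No circle held the first exon of its transcript and 7 started at exon 2. The last exon was held by circRNA4561 of Dennd1a, which was placed on a short transcript of 10 exons, and in the longer transcript that holds mmu_circ_0009944 the same exon end is that of exon 13, an internal exon. The length was divisible by 3 in 14 of the 51, among them 4 of the 11 circles of Dennd1b. Exons 4 to 9 of Dennd1b run from codon 43 to codon 204, so that this circle keeps the reading frame across its back-splice.

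The junctions show how near the main circles are to each other in sequence. Each line gives the last 20 bases before the back-splice in lower case and the first 20 bases after it in capitals, from the GENCODE vM21 transcript.
Exons 4 to 9: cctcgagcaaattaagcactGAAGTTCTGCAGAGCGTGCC
Exons 6 to 9: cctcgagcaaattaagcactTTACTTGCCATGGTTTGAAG
Exons 6 to 14: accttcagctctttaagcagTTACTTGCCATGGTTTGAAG
Exons 10 to 14: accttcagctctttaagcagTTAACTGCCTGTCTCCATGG

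The circles of exons 4 to 9 and 6 to 9 share the bases before the junction, and those of exons 6 to 9 and 6 to 14 share the bases after it. The study's divergent primers were placed on the 11 circles to see which of them they can amplify.
circDENND1B forward primer: agcaaattaagcactgaagttctg
circDENND1B reverse primer: gagcctgcagaacccaaatc

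The forward primer spans the back-splice of exons 4 to 9 and was found on this circle alone of the 11. The reverse primer lies in exon 5, which the circles of exons 3 to 5 and 5 to 13 also hold. Together the primers give a product of 150 bases on the circle of exons 4 to 9, and they give no product on the circle of exons 6 to 9, which had 29 of the 75 Dennd1b reads.

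The study's siRNA against circDENND1B was placed in the same way, to see which circles hold its target.
si-circDENND1B sense strand: gaggcagaaacaccugaca

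The 19 bases were found unbroken in 0 of the 11 circles and in 0 of 141767 annotated transcripts on either strand. Its first 9 bases were found in exon 5 and its last 10 bases in exon 8 of the circle of exons 4 to 9. The best ungapped placement on that circle had 5 mismatches. The study reports by qRT-PCR that circDENND1B fell in cells given this siRNA. The search used the sequence as the study prints it, and whether the siRNA used in the cells had these bases cannot be told from the files.

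The miRNA that the study follows, miR-17-5p, was set against all 11 circles. Its mature sequence (RefSeq) is shown with the seed, bases 2 to 8, in capitals, and the matches to the seed are shown in capitals within the circles.
mmu-miR-17-5p: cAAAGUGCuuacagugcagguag
Exon 5, in the circle of exons 4 to 9: caagttggacaGCACTTTaccttcgtcct
Back-splice of exons 6 to 9: cgagcaaattaaGCACTTTacttgccatgg

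The motif GCACTTT, the reverse complement of the seed, was searched on the strand of the circle and across the back-splice. It was found in 8 of the 11 circles of Dennd1b, which hold 61 of the 75 reads. In the circles of exons 3 to 5, 4 to 9 and 5 to 13 it lies within exon 5. The circle of exons 6 to 9 lacks exon 5, and there the motif is made by the back-splice itself, with 5 bases from the end of exon 9 and 2 from the start of exon 6. Exon 10 starts with the same 2 bases, so that 5 circles with 11 reads carry the motif over the joint of exons 9 and 10. The circles of exons 10 to 13, 10 to 14 and 11 to 14 have no match.

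Among all circles of the table that could be placed on annotated exons, 445 of 8296 (5.36%) held the motif at least once. Of the 1016 circles with a length within 10% of that of exons 4 to 9 it was 31 (3.05%), and of the 826 within 10% of the length of exons 6 to 9 it was 18 (2.18%). A match over the back-splice was found in 3 of the 8296 circles, and mmu_circ_0000083 is 1 of these 3. In the family, 9 of 51 circles held the motif, and 8 of these 9 were circles of Dennd1b that share exons. A match of 7 bases describes the sequence and does not show binding.

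Genes around the DENN proteins were read as host genes in the same table. Of 15 genes with a DENN-like module under another name 5 had reads, 3, 8 and 3 under HFD and 0, 2 and 7 under chow diet. Sbf2 had 10 of these reads, Fnip2 8 and Sbf1 3. The 3 genes tested had a median log2 fold change of 1.04.

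Of 10 Rab GTPase host genes, the class that DENN proteins act on, 4 were tested, with a median of -0.05 and 6, 8 and 10 reads against 5, 12 and 11. Rab11a, a GTPase of recycling endosomes, had 0, 2 and 3 reads against 2, 6 and 6, Rab2a had 11 reads in all and Rab22a 6. Of 19 other Rab regulators 16 had reads (36, 28 and 30 against 26, 27 and 42) and 12 were tested, with a median of 0.35. Tbc1d14 had 36 reads, Rabgef1 33 and Tbc1d5 22.

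Of 26 genes of clathrin and AP-2 endocytosis 19 had reads (25, 34 and 25 against 42, 40 and 38) and 13 were tested, with a median of -0.34. Picalm, a clathrin assembly protein, had 11, 8 and 6 reads against 12, 17 and 5, Reps1 had 29 reads in all and Epn2 28. In these 4 lists edgeR called 0 genes, with 0 at an unadjusted p under 0.05 and 0 called by DESeq2 and by limma, beside 4.46% of all host genes called.

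Among 306 host genes with reads in all 6 aortas and at least 20 reads, the normalized reads most like those of Dennd1b, by Pearson's r of log2 values over the 6 aortas, were those of Flna (r = 0.970), Arhgap32 (0.951), Ppp1cb (0.940), Dysf (0.918) and Pdlim5 (0.915). The median r was 0.155. Flna, which encodes the actin cross-linker filamin A, had 3, 11 and 4 reads under HFD and 23, 15 and 17 under chow diet. Arhgap32 had 25, 61 and 31 against 118, 86 and 100. Flna and Arhgap32 were called lower on the HFD (log2 fold change -1.28 and -1.06 in edgeR), beside 4.46% of all host genes called. Ppp1cb (-0.88), Dysf (-0.29) and Pdlim5 (-0.41) were not called. Since these genes were picked for their likeness to Dennd1b in the same aortas, the shared pattern is a description.

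Markers of cell types were counted as host genes of back-spliced reads, which is not their mRNA level. Of 10 smooth muscle markers 8 had reads, and together they had 23.2, 27.0 and 17.2 normalized reads under HFD and 57.9, 45.4 and 58.4 under chow diet. Itga8, the integrin alpha 8 of smooth muscle cells, had the most reads of these markers over the 6 aortas, with 7, 14 and 6 raw reads against 43, 28 and 41. Tagln and Cnn1 had 0. Itga8 was called in edgeR (log2 fold change -1.71, adjusted p = 0.00817), and DESeq2 gave a log2 fold change of -1.55 (DESeq2, adjusted p = 0.124). Without Itga8, a sum taken after the values were seen, the other 7 had 14.6, 12.5 and 10.3 normalized reads against 19.6, 18.9 and 23.2. Both sums were lower in all 3 HFD aortas than in any chow diet aorta. Of all single host genes tested, 9.55% had diets without overlap. HFD replicate 2 was the highest HFD aorta for Itga8 and for Dennd1b, and HFD replicate 1 was for the other 7 markers. Itga8 was the 1 smooth muscle marker called of 5 tested, beside 4.46% of all host genes called and 2.77% called lower on the HFD. Myh11, the smooth muscle myosin heavy chain, had 1, 1 and 1 raw reads against 4, 1 and 1.

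The 8 of 10 macrophage markers with reads had 18.3, 33.2 and 33.2 normalized reads under HFD and 24.1, 20.8 and 28.3 under chow diet, and Cd68 and Itgax had 0. The scavenger receptor gene Cd36 had the most reads of these markers (56 raw reads). Of 7 adipocyte markers 5 had reads (9.75, 6.23 and 6.88 against 13.4, 26.5 and 12.0, with the highest total for Acaca, which was called in edgeR with a log2 fold change of -1.28 and an adjusted p of 0.674), and the adipocyte-defining Adipoq and Plin1 had 0. Acaca was the 1 adipocyte marker called of 4 tested, beside 4.46% of all host genes called and 2.77% called lower on the HFD. Of 6 endothelial markers 4 had reads (3.66, 3.12 and 9.17 against 2.67, 1.89 and 6.01, with the highest total for Pecam1 and with Cdh5 and Kdr at 0). Lymphocyte markers (3 of 12 with reads, at most 3.66 normalized reads in an aorta) and skeletal and cardiac muscle markers (3 of 11, at most 10.3) were sparse, and the T cell genes Cd3e, Cd3g, Cd4 and Cd8a had 0. The part of cell composition in the Dennd1b values was not tested.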

How the data were processed

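The deposited circRNA table gives back-spliced reads (counts) per circRNA entry for 6 aortas. The authors trimmed reads with Cutadapt, searched unmapped reads for back-splices (TopHat-Fusion), called circRNAs (CIRCexplorer, CIRI) and did not state versions or genome build. The deposited SRPBM columns hold a signal, the counts divided by a depth per library, used in 2 alternatives. The table's fold change, p and q columns hold the authors' comparison and were not used. Ensembl identifiers were turned into symbols (1224 of 1224 matched). Entries, host gene sums and circles (entries 1 base apart summed) with reads in at least 2 aortas were tested with edgeR 4.0.16 (TMM, quasi-likelihood). Called means past the study's criteria, absolute log2 fold change above 1 with p, not adjusted, under 0.05. p-values were adjusted by Benjamini-Hochberg over all features tested. DESeq2 1.42.0 and limma 3.58.1 (log2 SRPBM) were alternatives, with other filters, library size, the authors' depth, a replicate block and each aorta left out. The fit was tested on simulated data with 8-fold changes. Among 4969 simulated entries that passed the filter, edgeR called 100 of 187 changed ones and 132 unchanged ones. Among 2687 simulated host genes, it called 122 of 191 changed ones and 70 unchanged ones. Exact permutation tests used scipy 1.17.1. Sequences came from GENCODE vM21 (GRCm38) and RefSeq. Named genes were all Dennd genes, all Dennd1b entries, other Dennd entries with at least 5 reads, called list members and the 3 with most reads, and the 5 host genes most like Dennd1b. Entries with fewer reads and Myh11 were named after their values were seen. Members and lists were chosen with earlier results of these data known.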

Additional observations from a re-analysis of the deposited data

How the results depend on the processing

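The normalization, filter, test and single aortas were varied. Dennd1b kept a negative log2 fold change in every alternative run, from -1.45 to -0.49 over the aortas left out in turn, and -0.95 with a replicate block. It was called without HFD replicate 2 (-1.45). The circle of exons 4 to 9 ranged from -5.14 to -0.60 with an aorta left out, was called without HFD replicate 2 (-5.14, HFD then at 0 reads), and was -1.73 with the block. Its call without HFD replicate 2 rests on chow diet reads alone and supports no difference between the diets. Correlations of deviations between aortas of the same number across diets averaged -0.0213, against 0.0107 for different numbers, so the numbers gave no pairing.

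The 104 called entries became 23 with DESeq2, 49 with at least 10 reads, 30 with the replicate block and 57 to 117 with an aorta left out. The 100 called host genes became 34, 49, 41 and 49 to 118. Called Dennd entries were 1, 0 with entries 1 base apart summed, and 1 to 2 with an aorta left out (2 without chow diet replicate 2). Called Dennd genes were 0, and 0 to 1 with an aorta left out (1, Dennd1b, without HFD replicate 2).

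Dennd4c ran from -1.65 to -0.70 with an aorta left out (-0.70 without HFD replicate 3). Dennd1a ran from 0.04 to 0.75, Dennd2a from 0.82 to 3.64 (without chow diet replicate 2, chow diet then at 0 reads) and Dennd6a from -3.41 (without HFD replicate 3, HFD then at 0 reads) to -0.80, and a fitted value against 0 reads depends on the prior count. Signs turned in other uncalled values. The circle of exons 6 to 9, whose alternatives were chosen after seeing the data, had 0.016 with library size alone, and -1.14 to 0.28 with an aorta left out (0.10 and 0.09 without HFD replicates 1 and 3, 0.28 without chow diet replicate 1). With an aorta left out, Dennd3 ran from -0.20 to 0.82, Dennd4a from -0.40 to 0.11, Dennd5a from -0.16 to 0.45 and Dennd5b from -0.73 to 1.66. Dennd3 had -0.20 and -0.10 without chow diet replicates 1 and 3. Dennd4a had 0.11 without HFD replicate 1 and 0.09 without chow diet replicate 1. Dennd5a had -0.00012 in limma and -0.16 without HFD replicate 2. Dennd5b had 0.0073 in DESeq2, 0.00096 in limma, 0.076 with the block, 0.47 without HFD replicate 2 and 1.66 without chow diet replicate 3. The cause was not tested. Dennd2a, Dennd3 and Dennd6a could not be fitted at 10 reads, nor Dennd3 at 3 aortas, without HFD replicate 3 or without chow diet replicate 2.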

Other observations

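The seed match of miR-212-5p was found in the circles of exons 4 to 9 and 6 to 9 alike, and for let-7b-5p both held a match to bases 2 to 7 and none to bases 2 to 8. The reads behind these values are few. Between 4694 and 7585 back-spliced reads per aorta put most Dennd entries at 1 or 2 reads, and a circle seen in a single aorta cannot be compared between the diets. Back-spliced reads do not give the level of the linear Dennd mRNAs, and the deposited table holds none. The aortas were whole, so the cells that hold these circles are not known from these data.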
